A study of Mus musculus with 36 samples.

Results

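The transcripts of 10 secreted matrix glycoproteins were followed in murine pancreatic fibroblasts: fibronectin (Fn1), tenascin C (Tnc), periostin (Postn), osteonectin (Sparc), thrombospondins 1 and 2 (Thbs1, Thbs2), fibrillins 1 and 2 (Fbn1, Fbn2), elastin (Eln) and osteopontin (Spp1). They were chosen by symbol, and the symbols picked out 10 of the 39017 genes in the count table. Of the 36 libraries, 4 came from fibroblasts in mono-culture and 4 from each of 8 co-cultures. In these the fibroblasts, of the C57BL/6 strain, were kept for 48 h in contact with tumour cells, namely one of the sub-clones E, H, K, M, N, T and V or the line KPC1, which the labels do not explain. All tumour lines carried GFP, by which they were separated from the fibroblasts with FACS. Each co-culture rests on 1 tumour line, and the same 4 mono-culture libraries are the control in all 8 comparisons.

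Fibronectin, fibrillins and elastin build the extracellular scaffold: fibronectin assembles into fibrils that cells grip through integrins, fibrillins form the microfibrils on which elastin is deposited, and cross-linked elastin gives tissue its recoil. Tenascin C, periostin, osteonectin, thrombospondins and osteopontin are matricellular proteins, which are secreted into the matrix but act mainly on cell adhesion, growth factor activity and remodelling rather than as load-bearing fibres. In pancreatic cancer, activated fibroblasts are the main source of the dense matrix around the tumour, and tenascin C, periostin and fibronectin are among its commonly cited components.

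The sequences upstream of Spp1, Tnc and Postn are shown because these 3 members had the highest fold changes when the 7 clonal co-cultures were averaged. The window table of RefSeq (build GRCm38.p6) held 6 of the 10 members, and each line gives the 250 bases before the start of transcription, 5′ to 3′ on the strand of the gene. Capitals mark matches, on either strand, to the TATA box TATAAA or to the RUNX motif AACCACA, and these 2 motifs do not overlap here. Spp1 spans chr5:104434861-104435110 on the plus strand, Tnc chr4:64047016-64047265 on the minus strand and Postn chr3:54360857-54361106 on the plus strand.
Spp1: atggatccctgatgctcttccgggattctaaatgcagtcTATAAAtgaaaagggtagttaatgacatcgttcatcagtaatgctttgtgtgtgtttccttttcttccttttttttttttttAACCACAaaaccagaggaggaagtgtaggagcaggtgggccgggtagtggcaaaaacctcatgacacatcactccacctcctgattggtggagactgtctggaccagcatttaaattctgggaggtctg
Tnc: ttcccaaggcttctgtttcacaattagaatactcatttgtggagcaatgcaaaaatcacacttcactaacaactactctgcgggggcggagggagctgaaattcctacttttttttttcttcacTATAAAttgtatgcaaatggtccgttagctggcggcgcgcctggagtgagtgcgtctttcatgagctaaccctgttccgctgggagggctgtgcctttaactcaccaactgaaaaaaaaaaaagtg
Postn: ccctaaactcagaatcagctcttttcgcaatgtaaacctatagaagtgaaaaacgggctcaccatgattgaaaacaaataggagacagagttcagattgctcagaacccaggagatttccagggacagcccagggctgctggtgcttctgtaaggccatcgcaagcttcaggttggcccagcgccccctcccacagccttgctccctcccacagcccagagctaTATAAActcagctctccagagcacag
The first base of TATAAA lay 26 bases before the start in Postn, 126 in Tnc and 211 in Spp1, and AACCACA began 129 bases before the start of Spp1. TATAAA was found in 12.4% and AACCACA in 4.4% of 32851 windows of this length. Neither the AP-1 motif TGANTCA (6.75% of all windows) nor the TEAD motif GGAATG (12.6%) occurred in the 6 windows of the members, on either strand. A match describes the letters only, and no binding was measured in these cells.

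Library totals ran from 12532122 to 21985538 counts, with a median of 18001907. The 10 fibroblast markers summed to 21820 to 23620 CPM (read counts relative to the library total, scaled by TMM) in mono-culture and to 10950 to 32290 CPM in the co-cultures, with Col1a1 at 4232 to 10210 CPM on average. The mean sum was 22480 CPM in mono-culture, 14860 to 17350 with KPC1 and clones V, H and T, and 23500 to 27000 with E, N, K and M. Single markers differed in direction. With clone H, Pdgfra averaged 124 CPM against 312 in mono-culture, and Pdgfrb 880 against 576. The epithelial marker sum moved with co-culture. The 12 listed genes came to 1.22 to 1.82 CPM in mono-culture and 18.5 to 803 CPM in the co-cultures. Most of this came from Krt8, Krt18 and Krt19, while Epcam and Cldn4 averaged at most 0.177 CPM in every group. Of the 12, only 4 to 6 averaged above 1 CPM in any one co-culture, and 0 in mono-culture. Krt7 and Cldn7 averaged 0.349 and 0.0998 CPM with clone E, against 0.372 and 0.281 in mono-culture. Of the leukocyte markers, Ptprc, Itgam and Tyrobp averaged at most 0.0656 CPM in every group, and the 8 measured genes summed to 5.63 to 33.5 CPM. The 6 endothelial genes summed to 1.12 to 6.39 CPM, and the 6 smooth muscle and pericyte genes, chiefly Acta2, to 119 to 204 CPM in mono-culture and 154 to 1113 CPM in co-culture. The part of these other RNAs in the results that follow was not tested, and in bulk RNA fewer cells of a type and less RNA per cell cannot be told apart. Libraries with the same number stood apart in a like way: number 4 was the lowest in 7 of 8 co-cultures for Fn1, Tnc and Fbn1, and number 2 the highest in 8 of 8 for Tnc and in 7 of 8 for Eln. The labels do not say what the numbers share or whether replicates were separate cultures, so p-values measure only the spread between these samples, which may be technical.

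The members spanned a wide range of levels in the fibroblasts. Together the 10 took 1.04% to 1.18% of all counts in mono-culture and 1.19% to 2.26% in the co-cultures, and Fn1 alone took 0.468% to 0.548% and 0.457% to 1.17%. Per length, in RPKM (reads per gene length and library size), the highest mono-culture level was that of Sparc at 1531 ± 96.8 (SD, n = 4), followed by Fn1 at 606 ± 44.4, Spp1 at 136 ± 24.7 and Thbs1 at 122 ± 15.3. Postn stood at 78.5 ± 15.1 RPKM, Fbn1 at 51.9 ± 4.32, Thbs2 at 49.1 ± 6.67 and Tnc at 31.2 ± 3.42. Eln, at 1.89 ± 0.232 RPKM, lay far below the other tested members, and Fbn2 was near the detection limit. In co-culture the ranking shifted through several members. Spp1 had group means of 195 to 1548 RPKM, beside 1314 to 1875 for Sparc and 795 to 1154 for Fn1. It was above Sparc with clone T, and above Fn1 with clones H, N and T and KPC1. With clones K and M it was below Postn (195 against 383 and 263 against 282). Postn was above Thbs1 with all lines but clones H and V. Tnc was above both Thbs2 and Fbn1 with clones H, K, N and V and KPC1.

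**Figure D1:**
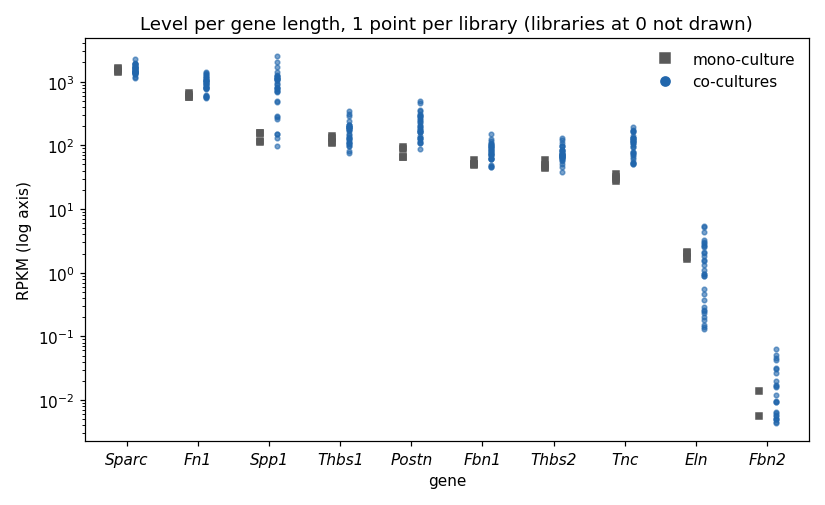
RPKM (log axis) of the 10 members, 1 point per library, with mono-culture libraries in grey and the 32 co-culture libraries in blue. Sparc and Fn1 are at the top in mono-culture, single Spp1 libraries reach or pass them in co-culture, and Eln and Fbn2 lie lowest.

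The first question was which of these genes changed when fibroblasts met each tumour line. Most changes were increases: counted over the 8 lines, Tnc and Postn rose in all 8, Thbs2 in 7, Spp1 in 6, Fn1 in 5, Thbs1 and Fbn1 in 3 each and Sparc in 1, while Eln fell in 3. Fbn2 did not pass the filter on low counts, which left 9 members and 14439 genes in the edgeR quasi-likelihood test (Benjamini-Hochberg adjusted p below 0.05). With clone H, 7 members rose and 1 fell, beside 27.8% of all genes higher and 26.4% lower. Clone V gave the same numbers, 7 higher and 1 lower, beside 29.4% and 28.9%. With KPC1, 5 rose and 1 fell, beside 30.5% and 28.5%. Clone T raised 6 members and lowered none, beside 25% of genes higher and 24.7% lower. The counts were smaller where fewer genes changed at all. Clone N raised 5 members (19.7% of genes higher, 19.2% lower), clone E raised 4 (16.5% and 15.5%), clone K raised 4 (10.4% and 8.69%) and clone M raised 3 (12.2% and 10.8%), and none of these 4 lines lowered a member. The median log2 fold change of the 9 members was between 0.49 with clone E and 1.0 with clone V, while the median of all genes lay between -0.01 and 0.01 in each comparison. When the 9 libraries numbered 4 were left out, a choice made after seeing the data, the members called in either direction came to 8 with clone H (53% of all genes), 9 with V (56.7%), 6 with T (48.9%), 6 with KPC1 (59.2%), 7 with N (34.4%), 5 with E (29.2%), 5 with K (21.1%) and 4 with M (20.8%).

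For the mean of the 7 clones against mono-culture, 7 of 9 members rose and none fell, beside 24.3% of all genes higher and 24.9% lower. The members that rose were Spp1 (log2 fold change 2.42 ± 0.33, SE), Tnc (1.75 ± 0.27), Postn (1.55 ± 0.20), Fbn1 (0.77 ± 0.24), Fn1 (0.71 ± 0.22), Thbs2 (0.68 ± 0.13) and Thbs1 (0.57 ± 0.18). Sparc, at 0.12 ± 0.10 (adjusted p = 0.345, edgeR), and Eln, at -0.60 ± 0.31 (adjusted p = 0.109, edgeR), did not pass. The median over the members was 0.71, beside 0.01 over all genes tested. The clones also differed among themselves in 7 of the 9 members, beside 67.5% of all genes, and the exceptions were Fn1 (adjusted p = 0.37, edgeR F-test) and Fbn1 (adjusted p = 0.86). Without the libraries numbered 4, Fn1 passed this test too (adjusted p = 0.00166, edgeR). The spread between the highest and lowest clone was 3.70 log2 units for Eln, 3.02 for Spp1, 1.46 for Postn, 1.40 for Tnc, 1.16 for Thbs1, 1.10 for Thbs2 and 0.54 for Sparc.

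**Figure D2:**
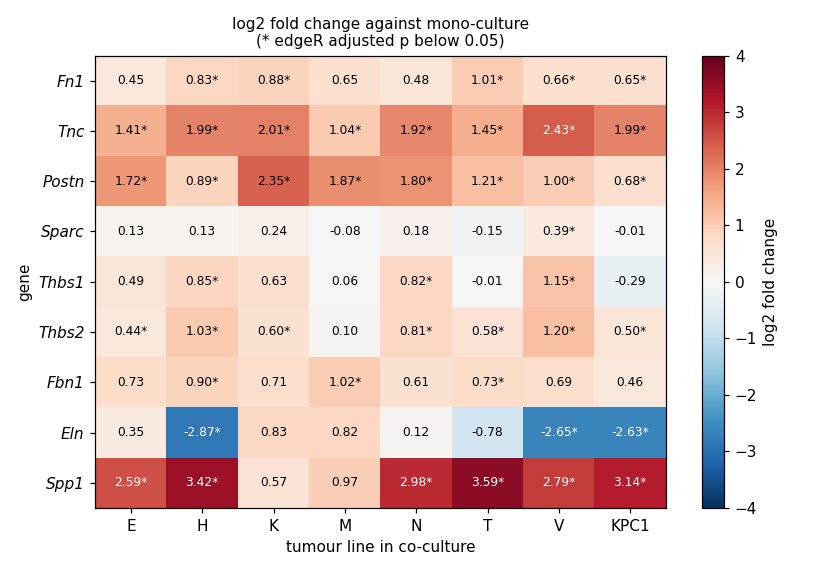
Log2 fold change against mono-culture of the 9 tested members (rows) in the 8 co-cultures (columns), as colour and number, with a star where the edgeR adjusted p was below 0.05. Tnc and Postn are starred in all 8 columns, and Eln is the only row with strong negative values, in clones H and V and in KPC1.

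Tnc, which encodes the hexameric adhesion-modulating glycoprotein tenascin C (chr4:63959785-64047015 in GRCm38, minus strand), rose with each line. The mono-culture libraries held 197, 251, 189 and 213 CPM (replicates 1 to 4). With clone V they held 1248, 1448, 955 and 945 CPM, and with clone N 794, 927, 771 and 727. All 8 of these stood far above the mono-culture, and the 4 of clone V above each library of clone N. With clone K the values were 974, 1225, 883 and 342 CPM, with clone H 883, 1193, 827 and 473, and with KPC1 956, 1219, 692 and 521. In these 3 groups number 4 was well below the other libraries, yet above all 4 mono-culture values. With clone T they were 434, 867, 580 and 446 CPM, with clone E 537, 806, 551 and 367, and with clone M 366, 666, 358 and 354. Thus 32 of 32 co-culture libraries lay above the mono-culture range. The log2 fold change ran from 1.04 ± 0.32 (SE) with clone M (adjusted p = 0.0166, edgeR) to 2.43 ± 0.33 with clone V (adjusted p = 3.22e-07), or 2.05-fold to 5.40-fold. Without clone M replicate 2 the clone M difference was 0.76 and no longer passed (adjusted p = 0.0929). In the order of group means each neighbouring pair overlapped, except that the lowest co-culture, clone M, was clear of mono-culture.

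Postn encodes periostin, an integrin-binding matricellular protein of collagen-rich tissue (chr3:54361109-54391037, plus strand), and it too rose with all 8 lines. In mono-culture it was at 471, 448, 326 and 328 CPM. The highest levels were those with clone K, at 1483, 2669, 2481 and 1371 CPM, followed by clone M at 1287, 1818, 1211 and 1420. Clone N gave 1017, 1681, 1569 and 1208 CPM and clone E 841, 1954, 1366 and 1033, so these 4 lines overlapped one another and none came near the mono-culture. The other 4 lines were lower. Clone T gave 882, 877, 937 and 945 CPM, clone V 477, 1046, 755 and 858, and clone H 698, 960, 594 and 656. KPC1 gave 608, 646, 586 and 684 CPM, which were the least spread in proportion after clone T and still above each mono-culture library. The fold changes were 5.09 with clone K (log2 2.35 ± 0.25, SE, adjusted p = 4.75e-08, edgeR) and 1.61 with KPC1 (log2 0.68 ± 0.24, adjusted p = 0.0139). All 32 co-culture libraries exceeded the mono-culture range. Postn with KPC1 had a log2 fold change of 0.55 and an adjusted p of 0.113 (edgeR) when the 9 libraries numbered 4 were left out, a setting chosen after the values were seen.

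**Figure D3:**
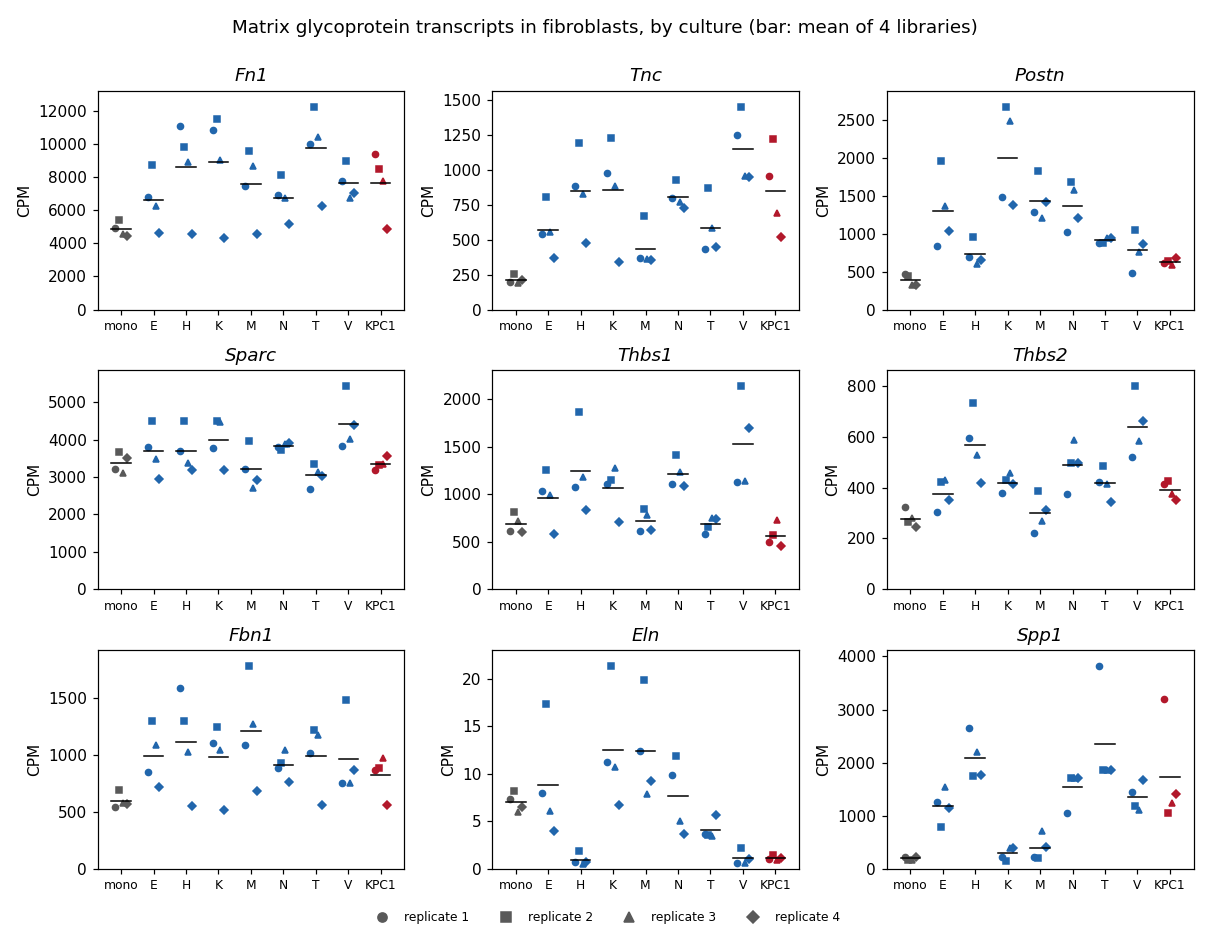
CPM (linear axes from 0) of the 9 tested members in each culture, 1 point per library with the replicate number as its shape and a bar at the mean of 4 libraries, grey for mono-culture, blue for the 7 clones and red for KPC1. Tnc and Postn are above the mono-culture in all co-culture libraries, Spp1 is near the mono-culture only with clones K and M, and number 4 (diamond) is often the lowest for Fn1, Tnc and Fbn1.

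Spp1 encodes osteopontin, a phosphorylated glycoprotein that binds integrins and CD44 (chr5:104435118-104441050, plus strand), and it showed the highest fold changes of the 9 tested members in 6 of the 8 lines, all but clones K and M. The mono-culture libraries were at 224, 167, 169 and 223 CPM. With clone T the values were 3821, 1863, 1864 and 1859 CPM, and with clone H 2648, 1749, 2199 and 1765. Both lines were about an order of magnitude above mono-culture, at 12-fold (log2 3.59 ± 0.40, SE, adjusted p = 2.72e-08, edgeR) and 10.7-fold (log2 3.42 ± 0.39, adjusted p = 3.73e-08). KPC1 gave 3192, 1044, 1243 and 1401 CPM, clone N 1048, 1702, 1715 and 1703, clone V 1437, 1187, 1102 and 1681, and clone E 1266, 780, 1538 and 1136. These 4 lines were 6.03-fold to 8.79-fold above mono-culture. With clone K, however, the libraries held 227, 146, 397 and 390 CPM, and with clone M 220, 199, 705 and 413. Those 2 groups overlapped the mono-culture and did not pass the test (log2 0.57 ± 0.36, adjusted p = 0.294, and 0.97 ± 0.36, adjusted p = 0.0505, edgeR). No library of clones K or M reached the lowest library of the other 6 lines, and in the order of group means the gap between clones E and M was the single one without overlap. The clone M difference was 0.51 without clone M replicate 3, and it passed the test at 0.96 to 1.19 (adjusted p = 0.0202 to 0.0493) when any one of 7 libraries was left out, namely replicates 1 or 2 of clone M or of KPC1, replicate 2 of clones E or K, or replicate 1 of clone T.

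The epithelial marker sum was above mono-culture in every co-culture, whereas Spp1 passed the test in 6 of 8 lines. The 2 are set side by side for the mono-culture and clones M, H, V and K, with single libraries of other lines. In mono-culture the 12 epithelial genes summed to 1.22 to 1.82 CPM with Spp1 at 167 to 224. With clone M they summed to 143, 53.3, 528 and 284 CPM, and Spp1 was at 199 to 705. Clone H had 143, 63.3, 240 and 181 CPM of epithelial RNA, and Spp1 was at 1749 to 2648. Clones M and H overlapped in epithelial RNA and did not overlap in Spp1. How much epithelial marker RNA or Spp1 a tumour cell of each line holds was not measured here. Clone V had epithelial sums of 36.6, 29.1, 124 and 216 CPM with Spp1 at 1102 to 1681, and clone K had 50.7, 18.5, 233 and 303 CPM with Spp1 at 146 to 397. Within every line except clone N, the library with the highest epithelial sum also had the highest or the next highest Spp1. For example, clone T replicate 1 had 803 CPM of epithelial RNA and 3821 of Spp1, and KPC1 replicate 1 had 589 and 3192. The part of tumour cell RNA in the Spp1 level was not tested. Of the macrophage genes, Cd68 averaged 3.37 to 13 CPM over the groups, with the lowest mean in mono-culture and the highest with clone T. The others on that list did not all follow it. Lyz2 averaged 3.32 CPM in mono-culture, 0.675 with clone E and 0.0379 with clone H. In the same groups Csf1r averaged 0.972, 0.942 and 0.64 CPM, and Cd14 7.72, 11.9 and 8.6.

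**Figure D4:**
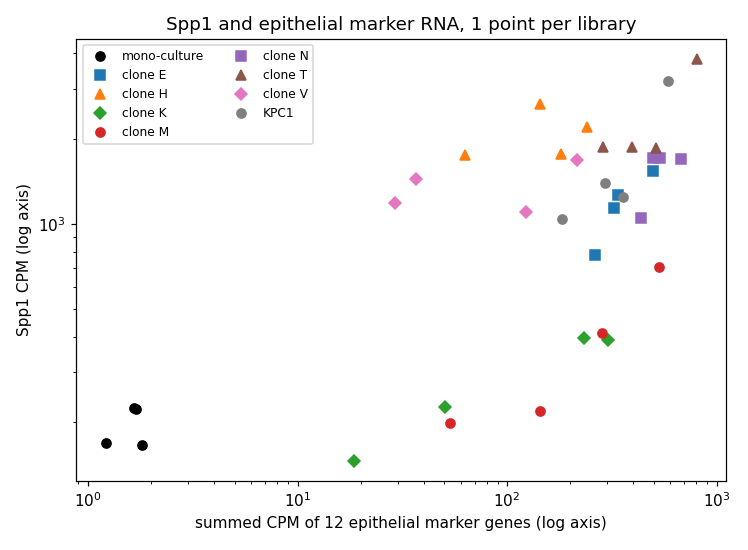
Spp1 CPM (log axis) against the summed CPM of 12 epithelial marker genes (log axis), 1 point per library, coloured by culture. The mono-culture is at the lower left. Clones K and M lie at low Spp1 over epithelial sums of 18.5 to 528 CPM. The other 6 lines lie at high Spp1 over sums of 29.1 to 803 CPM, a range that overlaps the first in part.

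Fn1 encodes fibronectin (chr1:71585520-71653200, minus strand) and was the member with the most counts. The mono-culture libraries were at 4905, 5424, 4577 and 4435 CPM. The levels were highest with clone T, at 10010, 12240, 10440 and 6261 CPM, and with clone K, at 10860, 11490, 9008 and 4329. Clone T was above mono-culture in each library, whereas replicate 4 of clone K was below it. Clone H gave 11090, 9796, 8926 and 4573 CPM, and the group means of the other 5 lines lay between 6611 (clone E) and 7617 CPM (clone V). In all, 26 of 32 co-culture libraries exceeded the mono-culture range and 1 was below it. Fn1 rose with clones H, K, T and V and KPC1, by 0.65 ± 0.27 (KPC1, adjusted p = 0.0373, edgeR) to 1.01 ± 0.27 (clone T, adjusted p = 0.00258) in log2 fold change, and had 0.45, 0.48 and 0.65 with clones E, N and M without passing. Several of these calls were lost when any one of several libraries was left out, mono-culture libraries among them. The calls with clone V and KPC1 were also lost without TMM scaling (adjusted p = 0.0536 and 0.0527, edgeR). The same held without the filter on low counts (adjusted p = 0.0565 and 0.0571, edgeR). Without replicates 1 or 2 of clone K or mono-culture replicate 4, clone K gave 0.74 to 0.85 (adjusted p = 0.0552 to 0.079). Clone V gave 0.57 to 0.66 (adjusted p = 0.0623 to 0.0945) without mono-culture replicates 1, 3 or 4 or clone V replicates 1 or 2. KPC1 gave 0.53 to 0.66 (adjusted p = 0.0636 to 0.124) without its replicates 1, 2 or 3 or mono-culture replicates 1, 3 or 4. Clone M passed without its replicate 4 (0.82, adjusted p = 0.0333).

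Sparc, the collagen-binding glycoprotein osteonectin (chr11:55394500-55423183, minus strand), had the smallest change over the mean of the clones. It was at 3375 ± 252 CPM (SD, n = 4) in mono-culture and its co-culture means ran from 3048 ± 291 with clone T to 4419 ± 709 with clone V. It rose with clone V, at 3838, 5426, 4023 and 4388 CPM against 3227, 3658, 3107 and 3507, by 0.39 ± 0.13 in log2 fold change (adjusted p = 0.0141, edgeR). Without clone V replicate 2 that difference was 0.28 (adjusted p = 0.0859). In the other 7 lines the log2 fold change lay between -0.15 and 0.24. For KPC1 it was -0.01 with a 95% interval of -0.28 to 0.27, and for the mean of the clones 0.12 with an interval of -0.09 to 0.33, so changes beyond these bounds were not seen at this spread. All neighbouring groups in the order of means overlapped.

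Thbs1 and Thbs2 encode related trimeric thrombospondins that bind CD36 or CD47 and other partners, and thrombospondin 1 is known as an activator of latent TGF-β. Thbs1 (chr2:118111876-118127133, plus strand) rose with 3 clones. In mono-culture it was at 612, 815, 720 and 603 CPM, with clone V at 1132, 2138, 1136 and 1697, and with clone H at 1081, 1870, 1180 and 833. Each of these 8 co-culture libraries exceeded the mono-culture range, as did the 4 of clone N (1084 to 1416 CPM). The log2 fold changes were 1.15 ± 0.23 for V (adjusted p = 8.86e-05, edgeR), 0.85 ± 0.23 for H and 0.82 ± 0.23 for N. With clone T (584 to 748 CPM), clone M (614 to 844) and KPC1 (450 to 734) the libraries overlapped those of the mono-culture, and 3 of the 4 KPC1 libraries were below all of them. Clone K missed the threshold at 0.63 (adjusted p = 0.0519, edgeR) and passed it at 0.62 to 0.78 (adjusted p = 0.0185 to 0.0497) without any one of 9 libraries, namely replicate 4 of clone K, replicates 2 or 4 of clones E or H, 3 or 4 of KPC1, and 1 or 2 of clone V. Clone E, at 0.49, passed without its own replicate 4 (0.66, adjusted p = 0.0269).

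Thbs2 (chr17:14665500-14694235, minus strand) rose in 7 lines and with clone M had a log2 fold change of 0.10 ± 0.16 (adjusted p = 0.706, edgeR). Its mono-culture libraries held 326, 263, 280 and 244 CPM, and 28 of 32 co-culture libraries were higher than all of these. With clone V they held 520, 800, 583 and 662 CPM, a log2 difference of 1.20 ± 0.17 (adjusted p = 3.5e-07), and with clone H 595, 733, 528 and 420, a change of 1.03 ± 0.17. Clone E, at 303, 423, 430 and 350 CPM, had the smallest change that passed, 0.44 ± 0.16 (adjusted p = 0.041), and it was 0.37 to 0.45 (adjusted p = 0.0648 to 0.126) without its replicates 2 or 3 or mono-culture replicates 2, 3 or 4. The pair kept unequal proportions. Per length, Thbs1 stood at 2.54 ± 0.506 times Thbs2 in mono-culture (ratio of RPKM, SD, n = 4), at 1.70 ± 0.388 with clone T and at 1.46 ± 0.348 with KPC1, and at 2.17 to 2.62 on average with the other 6 lines. The ranges of this ratio overlapped between mono-culture (1.90 to 3.14), clone T (1.37 to 2.19) and KPC1 (1.22 to 1.98).

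Fbn1 encodes fibrillin 1, the main microfibril protein of adult tissue (chr2:125300594-125507993, minus strand). In mono-culture it was at 546, 688, 579 and 569 CPM. It rose with clone M, at 1085, 1781, 1273 and 685 CPM, with clone H, at 1586, 1301, 1027 and 548, and with clone T, at 1017, 1216, 1177 and 556. In each of these 3 groups replicate 4 lay within the mono-culture range. The log2 fold changes were 1.02 ± 0.30 for M (adjusted p = 0.0146, edgeR), 0.90 ± 0.30 for H (0.0131) and 0.73 ± 0.30 for T (0.0443), and those of the other 5 lines were 0.46 to 0.73 without passing. The clone M value was 0.77 (adjusted p = 0.0786) without its replicate 2, the clone H value 0.68 (adjusted p = 0.0717) without its replicate 1, and the clone T value 0.63 to 0.73 (adjusted p = 0.0725 to 0.12) without replicates 1, 2 or 3 of clone T or 1, 3 or 4 of the mono-culture. Clone K passed without its replicate 4 (0.93, adjusted p = 0.0307), clone E without its replicate 4 (0.85, adjusted p = 0.0473) or that of clone H (0.72, adjusted p = 0.0488), and clone V, at 0.69 (adjusted p = 0.0519), without any one of 9 libraries. These were replicates 1 or 3 of clone V, 1 or 4 of clone H, 2 or 4 of clone M and replicate 4 of clone K, clone T or KPC1, and the value was then 0.69 to 0.80 (adjusted p = 0.0347 to 0.0472). With 27 of 32 co-culture libraries above the mono-culture range and an F-test among clones that gave no difference at an adjusted p of 0.86, the levels of the 7 clones could not be ranked.

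Fbn2, fibrillin 2, is best known from developing tissue. It had 0 to 13 counts per library and 91 counts over the 36 libraries. Counts reached 13, 11 and 8 in single libraries of clones N, K and M, and at most 3 in mono-culture. No fold change or test is given for it.

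Eln encodes tropoelastin, the soluble precursor of elastin (chr5:134702593-134747323, minus strand), and was the single member that fell. It was a low transcript throughout, with 10 to 362 counts per library. The mono-culture held 7.38, 8.14, 6.01 and 6.45 CPM, whereas clone H held 0.719, 1.82, 0.516 and 0.742, clone V 0.560, 2.21, 0.599 and 1.02, and KPC1 1.0, 1.45, 0.924 and 1.14. The 12 libraries of these 3 lines did not overlap with mono-culture. Their log2 fold changes were -2.87 ± 0.49 (adjusted p = 1.38e-05, edgeR), -2.65 ± 0.48 (2.49e-05) and -2.63 ± 0.49 (3.09e-05), so that the level decreased by 83.8% to 86.3%. With clone T the libraries, at 3.65, 3.52, 3.50 and 5.65 CPM, were also below each mono-culture library, but the log2 fold change of -0.78 ± 0.43 did not pass (adjusted p = 0.132). Clone K gave 11.2, 21.3, 10.7 and 6.70 CPM and clone M 12.4, 19.9, 7.85 and 9.25, with log2 fold changes of 0.83 ± 0.41 and 0.82 ± 0.42 that did not pass either. Clone E (8.0, 17.4, 6.07 and 3.96 CPM) and clone N (9.89, 11.8, 5.04 and 3.69) straddled the mono-culture. The F-test among clones gave an adjusted p of 4.62e-08, and in the order of means clone T was separated without overlap from the mono-culture above it and from KPC1 below it. Over the mean of the clones Eln passed when clone E replicate 2 was left out (-0.67, adjusted p = 0.0459).

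Against the mean of the 7 clones, KPC1 had 1 member higher and 3 lower of the 9 tested, beside 22.3% of all genes higher and 18.8% lower. The lower ones were Eln, with a log2 difference of -2.03 ± 0.42 (SE, adjusted p = 0.000309, edgeR), Postn with -0.86 ± 0.19 (adjusted p = 0.000651) and Thbs1 with -0.86 ± 0.19 (adjusted p = 0.000526). Spp1 was higher by 0.72 ± 0.25 (adjusted p = 0.0238), but without KPC1 replicate 1, the library at 3192 CPM, that difference was 0.23 (adjusted p = 0.55). Tnc differed by 0.24 with a 95% interval of -0.23 to 0.71 and Fn1 by -0.05 with an interval of -0.47 to 0.36, neither of which passed. The median over the members was -0.18, beside 0.01 over all genes.

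Other genes of the same matrix systems were taken from 3 lists. Of 22 further matricellular genes 12 could be tested, and in the mean of the clones 7 rose and 3 fell, beside 24.3% and 24.9% of all genes, with a median log2 fold change of 0.44 beside 0.01 over all genes. The 2 highest were Ccn2 (listed as Ctgf), a connective tissue growth factor, at 2.5 ± 0.38 (SE, adjusted p = 3.81e-06, edgeR), and Sparcl1, a paralogue of Sparc, at 2.45 ± 0.47 (adjusted p = 7.67e-05). The 2 lowest were the tenascin Tnxb at -2.97 ± 0.23 and Smoc2, a calcium-binding relative of Sparc, at -2.19 ± 0.30. Tnc and Tnxb, both tenascins, thus moved in opposite directions, as each passed the test on its own side. Tgfbi, a relative of Postn named after its values were seen, fell as well, at -2.16 ± 0.19.

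All 18 elastic fibre and microfibril genes could be tested, and in the mean of the clones 6 rose and 7 fell, beside the same 24.3% and 24.9%, with a median of -0.13. Adamtsl4, which binds fibrillin, was highest at 1.15 ± 0.14, followed by Ltbp2, a latent TGF-β binding protein, at 1.09 ± 0.18. Emilin1, an elastin-associated glycoprotein, was lowest at -1.39 ± 0.18, followed by Efemp1 (fibulin 3) at -1.18 ± 0.11. In the lines in which Eln fell, more genes of this list fell than rose: 10 fell and 3 rose with clone H, beside 26.4% and 27.8% of all genes, 10 fell and 1 rose with clone V (28.9% and 29.4%), and 11 fell and 3 rose with KPC1 (28.5% and 30.5%). Clone T had 9 lower and 5 higher (24.7% and 25% of all genes) and clone N 5 and 5 (19.2% and 19.7%). Clone E had 3 lower and 5 higher (15.5% and 16.5%), clone K 1 and 4 (8.69% and 10.4%) and clone M 2 and 6 (10.8% and 12.2%). The list medians were -0.77, -0.51 and -0.79 for H, V and KPC1 and 0.42 and 0.34 for K and M. Emilin1 had -2.33 ± 0.29 with clone H, -2.80 ± 0.29 with V and -3.10 ± 0.30 with KPC1, against -0.19 ± 0.27 with K, which did not pass. These comparisons share the mono-culture libraries, and the differences between lines in this list as a whole were not tested.

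Among 12 receptor genes 11 could be tested, and all 11 passed in the mean of the clones, 10 higher and 1 lower, beside 24.3% and 24.9% of all genes, with a median of 0.48 beside 0.01 over all genes. The count was 9 to 11 on leaving out 1 library, and lowest without clone N replicate 1. The highest were the integrin subunits Itga9, which pairs with β1 to bind tenascin C and osteopontin, at 2.25 ± 0.43 (adjusted p = 6.58e-05, edgeR), and Itgb3 at 1.21 ± 0.29 (adjusted p = 0.00111). The lowest was Itgb8 at -0.44 ± 0.11, and the lowest of those that rose was Itgb1 at 0.23 ± 0.09. Cd44, the hyaluronan and osteopontin receptor, was at 1.15 ± 0.12 and Itga5, the fibronectin receptor subunit, at 0.62 ± 0.11, both named after their values were seen. Itga9 was a low transcript, at 2.33 CPM on average over all libraries.

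**Figure D5:**
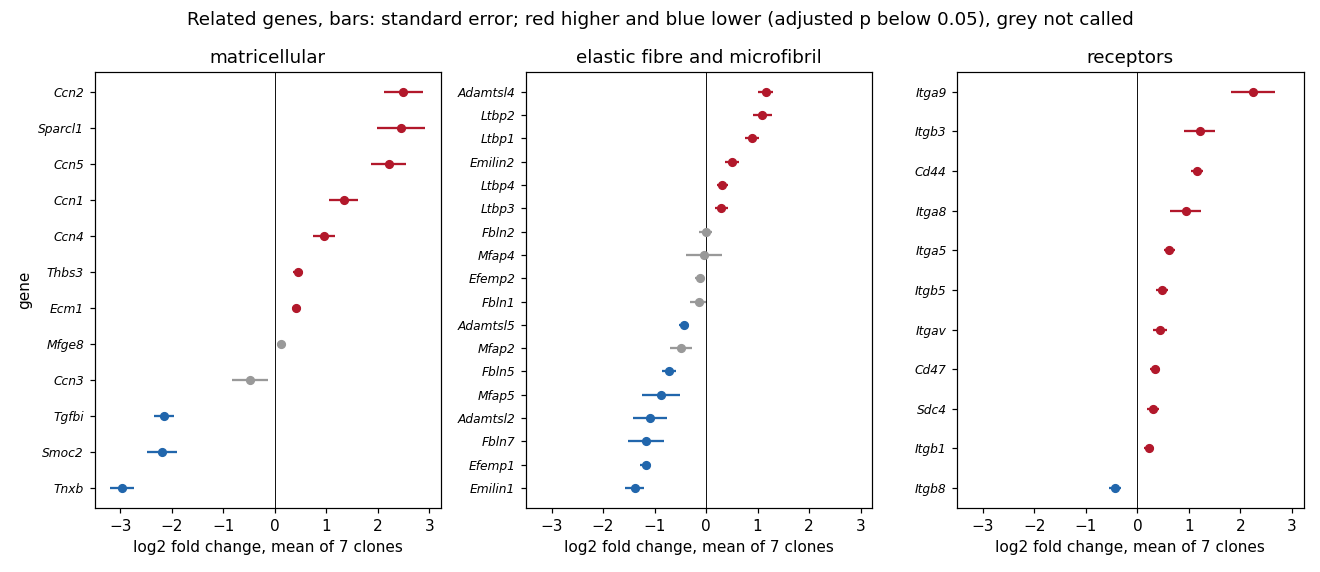
Log2 fold change (mean of 7 clones against mono-culture) of the tested genes of 3 lists, with standard errors as bars, red where higher and blue where lower at an edgeR adjusted p below 0.05, and grey otherwise. The matricellular panel holds 7 red and 3 blue points, the elastic fibre panel 6 and 7, and the receptor panel 10 and 1.

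The genes whose levels followed each member most closely were found by Pearson's r of log2 CPM over the 36 libraries, among 11694 genes. As these libraries share groups, the values are given as a description. Eln was most like Fbln7, a fibulin (r = 0.952), and Timp2, a metalloproteinase inhibitor (0.942). Spp1 was most like Emp1 (0.946) and the metal transporter Slc39a14 (0.937). Postn went with Nkd2 (0.938) and Tnfsf15 (0.912), and Tnc with the collagen VIII gene Col8a1 (0.922) and the activin subunit Inhba (0.903). Fbn1 and Fn1 shared their closest gene, Lrp1 (0.926 and 0.913), with Hspg2, perlecan, next for Fbn1 (0.888) and Fat1 for Fn1 (0.904). Thbs2 was nearest to Itga5 (0.83) and Grem1 (0.817), Sparc to Timp3 (0.815) and Col11a1 (0.813), and Thbs1 to Klhdc8a (0.819) and Sparc (0.795).

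Among the members themselves the highest r over the 36 libraries was that of Fn1 with Fbn1 (0.846), followed by Sparc with Thbs1 (0.795) and Tnc with Thbs2 (0.780). Eln and Spp1 had the lowest (-0.635). When group means were removed first, so that only the spread between libraries of a group was compared, Fn1 with Fbn1 stood at 0.915 and Fn1 with Tnc at 0.855, and Spp1 had negative values with 7 of the 8 other tested members, from -0.141 to -0.500, and 0.061 with Thbs2. The libraries of a group share their number with those of other groups. Number 4 was the lowest in 7 of 8 lines for Fn1, Tnc and Fbn1, so their within-group values carry that pattern too. For Spp1 number 4 was the lowest in 1 of 8 lines and number 2 the highest in 0.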

How the data were processed

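Poly(A) RNA of 36 libraries, 4 in each of 9 groups taken from the labels, was made into strand-specific libraries (200 ng input, 14 PCR cycles) and sequenced as 76 bp paired ends. The authors deposited whole-number read counts for 39017 genes, unscaled, and RPKM values for 37746 of them. The submitters' processing notes name STAR, featureCounts, edgeR and mm10, with versions and settings not given in the sources used here, nor whether counting used strand. Antisense genes overlapping Fn1, Tnc and Fbn1 had 0.0287% to 0.138% of the member's counts.

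Counts were filtered with filterByExpr and scaled by TMM, and all 36 libraries entered 1 quasi-likelihood fit in edgeR 4.0.16 (R 4.3.3), with a coefficient for each group, over 14439 genes. Adjusted p-values are Benjamini-Hochberg over all genes tested, with a threshold of 0.05. Standard errors are the log2 fold change over the root of F, and CPM are TMM-scaled counts (prior count 1 for log2 CPM). Counting error is small for all tested members but Eln, and 3 counts was the floor. Likeness used genes with a mean of at least 2 CPM. Chi-square tests of the counts in the 54 within-group pairs of libraries gave at least 5.53 per degree of freedom, so no pair agreed within sampling noise. The procedure was tested on simulated counts.

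The members, the related and marker lists, and the tests were chosen with earlier results of these data known. Named genes are the members, the 2 highest and 2 lowest called genes of each related list in the mean of the 7 clones, and the 2 genes with the highest r to each member. Promoter windows come from RefSeq, choosing for each gene the window with the most GENCODE M21 transcripts starting within 50 bases. Alternatives were scaling by RLE or by library size alone, omitting the filter, requiring 10 counts in each library, DESeq2 1.42.0, limma 3.58.1 on log2(RPKM + 1) or log2(RPKM + 0.1), the replicate number as a block, only the 8 libraries compared, a threshold of 0.01 and leaving out each library. Leaving out the libraries numbered 4 was added after seeing the data.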

Additional observations from a re-analysis of the deposited data

Results flagged for a closer look

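In 81 sets of 4 libraries (9 members in 9 groups), the extreme library was set apart by a gap that Dixon's 95% limit flags in 6, where chance flags about 1 in 20. Spp1 accounted for 3 of them. With clone T, replicate 1 held 3821 CPM against 1859 to 1864 in the others (gap over range 0.997), with KPC1 replicate 1 held 3192 against 1044 to 1401 (0.834), and with clone N replicate 1 held 1048 against 1702 to 1715 (0.981). Tnc with clone M was at 666 CPM in replicate 2 and at 354 to 366 in the others (0.962). Fbn1 with clone V was at 1480 CPM in replicate 2 and at 749 to 863 in the others (0.844). Eln with clone T was at 5.65 CPM in replicate 4 and at 3.50 to 3.65 in the others (0.928).

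The effect of co-culture differed between tumour lines by the F-test among the 7 clones in 7 of the 9 tested members, beside 67.5% of all genes. The range of the log2 fold change over the clones was 3.70 for Eln, 3.02 for Spp1, 1.46 for Postn, 1.40 for Tnc, 1.16 for Thbs1, 1.10 for Thbs2 and 0.54 for Sparc. KPC1 differed from the mean of the clones in Eln (-2.03), Postn (-0.86), Thbs1 (-0.86) and Spp1 (0.72), beside 22.3% of all genes higher and 18.8% lower. The Spp1 difference was 0.23 without KPC1 replicate 1 and did not pass (adjusted p = 0.55, edgeR).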

How the results depend on the processing

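Over 1062 values of single members under the alternatives other than leaving out 1 library, 979 kept their direction and their side of the threshold, 36 lost it, 42 gained it and 5 changed sign; over 3564 values that left out 1 library the numbers were 3487, 30, 31 and 16. Nothing changed under RLE scaling (99 values), and 4 of 99 calls were lost without scaling beyond library size. These were Fn1 with clone V and with KPC1, Fbn1 with clone T and Thbs2 with clone E. The same 4 were lost without a filter and in both limma fits, which also lost Spp1 for KPC1 against the clones. The values that changed sign were small and did not pass in either fit: Eln with clone N (-0.021 and -0.0761 with limma on log2(RPKM + 1) and log2(RPKM + 0.1)), Sparc with KPC1 (0.0086 without a filter) and Thbs1 with clone T (0.0099 without a filter). On leaving out 1 library, Eln ranged from -0.21 to 0.58 with clone E and from -0.16 to 0.36 with clone N, Fn1 from -0.17 to 0.11 for KPC1 against the clones, Sparc with KPC1 from -0.0361 to 0.0374, Thbs1 from -0.0264 to 0.15 with clone M and from -0.0618 to 0.0907 with clone T, and Thbs2 from -0.0464 to 0.22 with clone M. At a threshold of 0.01, 14 of 99 calls were lost. Clone M lost Fbn1 (adjusted p = 0.0146, edgeR) and Tnc (0.0166). KPC1 lost Fn1 (0.0373), Postn (0.0139) and Thbs2 (0.0102). The others lost were Fn1 with clones H, K and V, Fbn1 with H and T, Thbs2 with E and Sparc with V. Sparc among the clones and Spp1 for KPC1 against the clones were lost as well. When only the 8 libraries compared were fitted, the spread was estimated from those libraries alone. Of 72 values, 11 then gained a call and 0 lost one. Clone M gained Eln (0.84, adjusted p = 0.0384, edgeR) and Fn1 (0.67, adjusted p = 0.0208). The others gained were Eln with clone T, Fbn1 with clones E, K, N and V and KPC1, Fn1 with E and N, and Thbs1 with K. With the libraries numbered 4 left out, 3 of 99 calls were lost and 10 gained.

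The replicate number as a replicate block raised the members called to 7 for clones E and K, from 4 each, and to 6 for clone M, from 3, while all genes called came to 37%, 24.5% and 28.4% in these fits. It lost none of 99 calls and moved Thbs1 with clone T to 0.0178. The 15 calls it added were Eln with clones K, M and T and with the mean of the clones (-0.69, adjusted p = 0.00558, edgeR), Fbn1 with E, K, N and V, Fn1 with E, M and N and among the clones (adjusted p = 0.0155), Thbs1 with E and K, and Spp1 with M. The labels do not say what the numbers share, so they were not taken as pairs in the main fit. Same-numbered pairs of libraries deviated together in part. Deviations from the group means correlated at 0.143 on average over 112 pairs of co-culture libraries with the same number (-0.519 to 0.693, 63 of them above 0.1), at -0.047 over 336 pairs with different numbers (89 above 0.1) and at -0.021 over 32 same-numbered pairs with the mono-culture. As a hint from the data, 24 of 36 libraries correlated best with their own number.

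Depth limits Fbn2, with 91 counts in all, and Eln, with as few as 10 counts in a library.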
